A study of Rattus norvegicus with 8 samples.

Results

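The 10 genes described here encode the contractile apparatus of smooth muscle and its main transcriptional coactivator. They are Acta2, Tagln, Myh11, Cnn1, Smtn, Lmod1, Mylk, Des, Synpo2 and Myocd. They were taken by name from the 32623 rat genes counted in each library, and each name was found once. RNA was sequenced from the epigastric outflow vein of 8 arteriovenous fistulas (AVFs) in Sprague Dawley rats, 21 days after the vein was joined to the side of the femoral artery. All 8 veins were wrapped at surgery in a nanofiber scaffold. In 4 rats the scaffold released β-aminopropionitrile (BAPN, 3 females and 1 male), which blocks lysyl oxidases, the enzymes that crosslink the fibers of the matrix, and in the other 4 it was the vehicle scaffold without BAPN (2 females and 2 males). Each library is called by its group and number, such as BAPN 2, and the numbers only name the rats. Ages were not given in the sources used here, and each library came from the whole vein wall rather than from sorted cells.

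Smooth muscle cells contract when calcium activates myosin light chain kinase, which lets smooth muscle myosin pull on actin filaments anchored to dense bodies and to the intermediate filaments around them. During differentiation Acta2 and Tagln are switched on early and are also made by activated fibroblasts (myofibroblasts). Myh11, Smtn and Lmod1 mark mature contractile cells. Most of these genes are driven by serum response factor (SRF), which binds CArG boxes in their regulatory DNA, together with the coactivator myocardin, the product of Myocd. In a vein exposed to arterial flow, smooth muscle cells are known to lose contractile gene expression as the wall remodels.

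Most of the contractile genes were lower in the veins with BAPN scaffolds. The log2 fold changes of the late markers were larger than those of the early ones. That difference was tested with 6 ratios of a late to an early gene, and none passed after adjustment. With 4 rats a group and few ratios fully apart, none could have passed. The sign of the difference turned for Smtn against Acta2 without BAPN 2. Of the 10 genes, 7 were called lower and none higher at a false discovery rate (FDR, Benjamini-Hochberg over 11682 tested genes) below 0.05 by edgeR's quasi-likelihood test. Among all tested genes, 16.8% were called, 9.25% lower and 7.5% higher. All 10 genes passed the filter on low counts, and all 10 had a negative log2 fold change of BAPN against vehicle, as did 48.4% of all tested genes. Their median log2 fold change was -1.25, against 0.02 over all tested genes, of which the central range from the 5th to the 95th percentile ran from -1.05 to 0.72. In bulk tissue, fewer smooth muscle cells and less of these transcripts per cell cannot be told apart.

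Levels are given in CPM (counts scaled to a common library total) of the reads on tested genes after TMM scaling, and they are not corrected for gene length, so they are compared between rats and not between genes. The total count per library was 45039451 to 52241007 in the BAPN group and 19548203 to 22442050 in the vehicle group, so depth differed between the groups without overlap. When all libraries were thinned to the smallest total, the same number of contractile genes, 7, was called. The 10 genes together took between 0.178% and 0.454% of the scaled reads in BAPN rats and between 0.365% and 0.656% in vehicle rats. The defining markers Acta2, Tagln and Myh11 were each at 277 CPM or more in every library, so the smooth muscle program was measured in both groups.

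**Figure D1:**
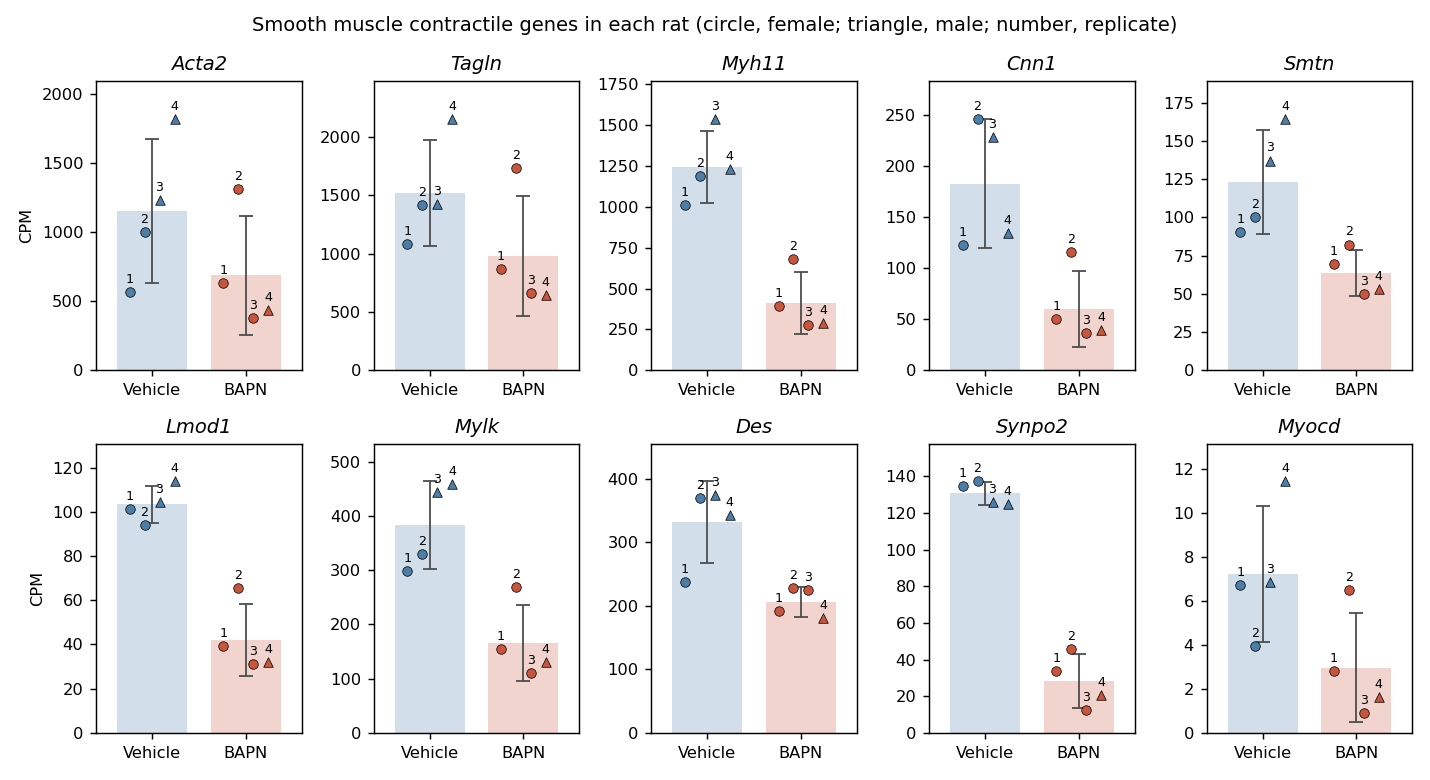
Level of each of the 10 genes in each rat, in CPM on a linear axis, with 1 panel per gene. Circles are females, triangles are males, and bars with error lines show the group mean ± SD of n = 4. The groups are apart in 7 panels and overlap in those of Acta2, Tagln and Myocd.

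The early markers overlapped between the groups. Acta2 (ENSRNOG00000058039) encodes smooth muscle α-actin, the thin filament protein used to stain smooth muscle cells and myofibroblasts. It was at 629.8, 1311, 375 and 436 CPM in BAPN 1 to 4 and at 563, 1001, 1231 and 1822 CPM in Vehicle 1 to 4. The groups overlapped, since BAPN 2 lay above Vehicle 1, 2 and 3. The means were 688 ± 429 CPM in the BAPN group and 1154 ± 524 CPM in the vehicle group (SD, n = 4 each). The log2 fold change was -0.75 with a standard error of 0.44, which did not pass the test (edgeR FDR 0.26, DESeq2 FDR 0.174).

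Tagln (ENSRNOG00000017628) encodes transgelin, or SM22α, a calponin-family protein that binds actin. Its level was 867, 1733, 665.7 and 644 CPM in BAPN 1 to 4 and 1082, 1417, 1426 and 2158 CPM in Vehicle 1 to 4. BAPN 2 was again above the first 3 vehicle rats, while the other BAPN rats were below every vehicle rat. The means were 978 ± 514 and 1521 ± 454 CPM (SD, n = 4 each). With a log2 fold change of -0.64 and a standard error of 0.33, Tagln was not called (edgeR FDR 0.217, DESeq2 FDR 0.14). Without BAPN 2 it was called lower (edgeR log2 fold change -1.08, FDR 0.0412), and over 19 alternative fits its FDR ranged from that value to 0.789. Acta2 was not called in any of the same 19 fits, in which its FDR ranged from 0.0638 without BAPN 2 to 0.986 among females alone. Its log2 fold change was -1.28 without BAPN 2, where that of the late marker Smtn was -1.11, and -0.44 without Vehicle 4. The rats with the highest Acta2 among vehicle rats, Vehicle 3 and 4, were the males of that group. Among the 5 females alone, the log2 fold change was -0.02 for Acta2 and -0.20 for Tagln.

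CArG boxes hold an A- and T-rich core between a CC and a GG. The 250 bases upstream of the start of 6 of the 10 genes (Acta2, Cnn1, Smtn, Mylk, Des and Synpo2) could be read from the RefSeq promoters of assembly GRCr8, and Tagln, Myh11, Lmod1 and Myocd were not in that table. No exact box was found in these 6 windows, and 1.5% of all 33469 promoters in the table held one in the same stretch. With 1 mismatch allowed, boxes were found in 2 of the 6, Acta2 and Smtn, and in 18.7% of all promoters. The element reads alike on both strands, so 1 search covered both. They are shown because they set an early and a late marker side by side, with 25 bases on each side, 5′ to 3′ on the gene's strand (minus for both genes) and the box in capitals. The windows lie at chr1:241172603-241172662 and chr1:241172553-241172612 for Acta2, with boxes 134 to 125 and 84 to 75 bases upstream of its start, and at chr14:82644590-82644649 for Smtn, with its box 110 to 101 bases upstream.
Acta2 distal: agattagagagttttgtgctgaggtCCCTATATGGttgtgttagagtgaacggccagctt
Acta2 proximal: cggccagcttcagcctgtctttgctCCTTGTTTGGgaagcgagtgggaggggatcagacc
Smtn: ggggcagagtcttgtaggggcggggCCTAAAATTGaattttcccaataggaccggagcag
These matches are letters in a window and no measure of binding.

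Among the late markers, Myh11 showed the largest difference. Myh11 (ENSRNOG00000057880) encodes the smooth muscle myosin heavy chain, the motor of the thick filament and the marker most restricted to smooth muscle. It was at 396, 684, 277 and 288 CPM in BAPN 1 to 4 and at 1014, 1191, 1540.1 and 1230.4 CPM in Vehicle 1 to 4. The groups were fully apart, and the highest BAPN value, in BAPN 2, was still well under the lowest vehicle value. The mean was 411 ± 189.5 CPM against 1244 ± 219 CPM (SD, n = 4 each), 3.02-fold higher in the vehicle group. The log2 fold change was -1.60 (SE 0.29, edgeR FDR 0.0148).

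Lmod1 (ENSRNOG00000051548) encodes leiomodin 1, which nucleates actin filaments in smooth muscle. Its values were 39.3, 65.6, 31.4 and 31.9 CPM in BAPN 1 to 4 and 101, 93.8, 105 and 114 CPM in Vehicle 1 to 4. The vehicle rats lay close together, with an SD of 8.25 CPM around 103 CPM, and all were above the BAPN rats, which had a mean of 42.1 ± 16.1 CPM (n = 4 each). The log2 fold change was -1.30 (SE 0.22, edgeR FDR 0.0124).

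Smtn (ENSRNOG00000019451) encodes smoothelin, an actin-associated protein of contractile cells. Its level was 69.3, 82.2, 49.98 and 53.0 CPM in BAPN 1 to 4 and 90.6, 99.9, 137 and 164 CPM in Vehicle 1 to 4. The groups were apart but close, with BAPN 2 next to Vehicle 1. Means of 63.6 ± 15.0 and 123 ± 34.1 CPM (SD, n = 4 each) gave a log2 fold change of -0.95 (SE 0.22, edgeR FDR 0.0254). The change of Smtn was thus smaller than that of the other late markers and nearer to that of Acta2.

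**Figure D2:**
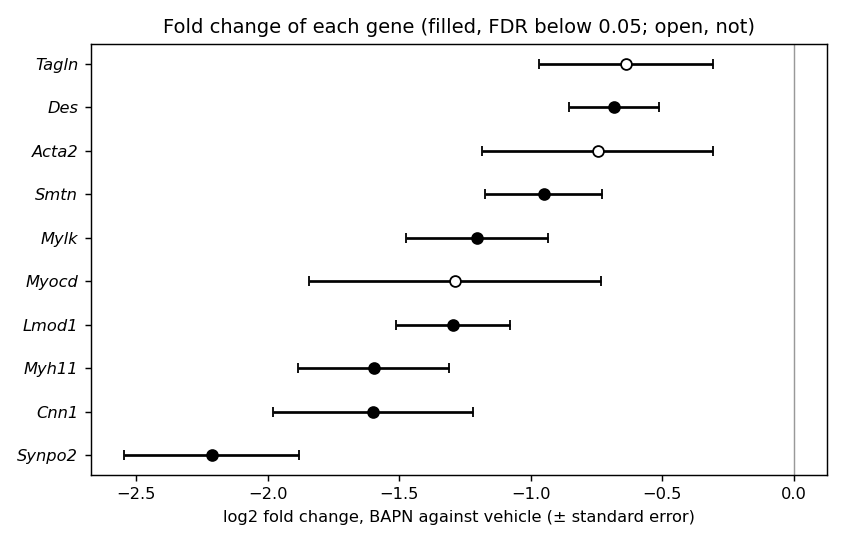
log2 fold change of BAPN against vehicle (x axis) for each of the 10 genes (y axis, ordered by size), from edgeR, with bars of ± 1 standard error from limma-voom, filled where the FDR was below 0.05. The points run from -0.64 for Tagln to -2.21 for Synpo2, and the open points are Tagln, Acta2 and Myocd.

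Whether the late markers differed by another amount than the early ones was tested with the log2 ratio of a late to an early gene within each rat, which does not depend on how libraries are scaled. Of the 6 ratios, none passed after Benjamini-Hochberg adjustment over the 6 in exact two-sided permutation tests of 4 against 4, whose smallest possible p is 0.0286. For Myh11 to Tagln, BAPN 1 to 4 had log2 ratios of -1.13, -1.34, -1.27 and -1.16, and Vehicle 1 to 4 had -0.09, -0.25, 0.11 and -0.81. All 4 BAPN rats were below all 4 vehicle rats, and they lay within a narrow band. The difference in means was -0.96 (SE 0.20, exact permutation p = 0.0286, adjusted p = 0.0857). The log2 ratio of Lmod1 to Tagln also had no overlap, with BAPN 1 to 4 at -4.46, -4.72, -4.41 and -4.33 and Vehicle 1 to 4 at -3.42, -3.92, -3.77 and -4.25. Its difference was -0.64 (SE 0.19, exact permutation p = 0.0286, adjusted p = 0.0857). Both ratios were at the smallest possible p. With only these at it, the adjustment over the 6 could not bring any ratio below 0.05.

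Against Acta2 the ratios overlapped. For Myh11 to Acta2, the log2 ratios of BAPN 1 to 4 were -0.67, -0.94, -0.44 and -0.59, and those of Vehicle 1 to 4 were 0.85, 0.25, 0.32 and -0.57. Vehicle 4, the rat with the highest Acta2, fell among the BAPN rats. The difference was -0.87 (SE 0.31, exact permutation p = 0.0571, adjusted p = 0.114). For Lmod1 to Acta2 it was -0.55 (SE 0.36, exact permutation p = 0.171, adjusted p = 0.257). Among females alone, with no test, the differences were -1.23 for Myh11 to Acta2 and -1.02 for Lmod1 to Acta2. Smtn showed little difference from the early markers, with -0.13 against Acta2 (SE 0.30, exact permutation p = 0.714) and -0.22 against Tagln (SE 0.21, exact permutation p = 0.4). The standard errors leave room for a difference in Smtn of either sign, and the sign of its ratio to Acta2 turned to 0.11 without BAPN 2 and to 0.04 without Vehicle 1.

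**Figure D3:**
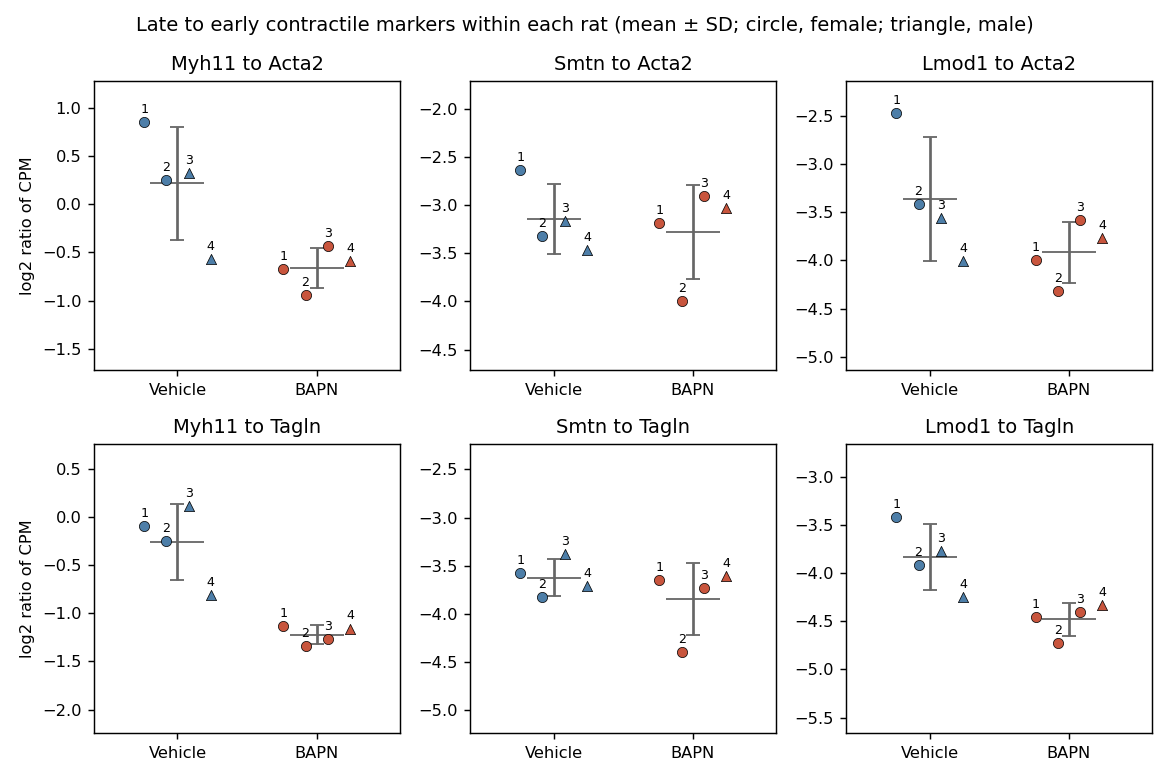
log2 ratio of each late marker (columns) to each early marker (rows) within each rat (y axis), with the rat's number at its point, circles for females, triangles for males, and lines for the group mean ± SD of n = 4. Myh11 to Tagln and Lmod1 to Tagln are lower in every BAPN rat than in every vehicle rat, while the other 4 ratios overlap.

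The remaining genes of the contractile apparatus were all called lower. Mylk (ENSRNOG00000002215) encodes myosin light chain kinase, the calcium- and calmodulin-dependent enzyme that starts contraction. It was at 155, 268, 110.4 and 131 CPM in BAPN 1 to 4 and at 299, 329.8, 444 and 459 CPM in Vehicle 1 to 4. No BAPN rat reached the lowest vehicle rat. The log2 fold change was -1.20 (SE 0.27, edgeR FDR 0.0247), from means of 166 ± 70.4 and 383 ± 80.4 CPM (SD, n = 4 each).

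Cnn1 (ENSRNOG00000027736) encodes calponin 1, which binds actin and restrains the myosin motor. Its values were 49.7, 115, 36.2 and 39.5 CPM in BAPN 1 to 4 and 122, 246, 228 and 134 CPM in Vehicle 1 to 4. BAPN 2 came close to Vehicle 1 without reaching it, and the other BAPN rats were far below. The means of 60.2 ± 37.3 and 183 ± 63.5 CPM (SD, n = 4 each) differed 3.03-fold, and the log2 fold change was -1.60 (SE 0.38, edgeR FDR 0.0295).

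Des (ENSRNOG00000019810) encodes desmin, the muscle intermediate filament that links dense bodies. It was at 191, 228, 226 and 181 CPM in BAPN 1 to 4 and at 237, 370.0, 375 and 344 CPM in Vehicle 1 to 4. The groups did not overlap, but Vehicle 1 was only just above the highest BAPN rat. Of the called genes it had the smallest difference, with means of 206 ± 23.7 and 332 ± 64.2 CPM (SD, n = 4 each) and a log2 fold change of -0.68 (SE 0.17, edgeR FDR 0.029). It was close to that of Acta2, but the BAPN rats varied far less, with a coefficient of variation of 11.5% for Des and 62.4% for Acta2.

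Synpo2 (ENSRNOG00000014867) encodes synaptopodin 2, or myopodin, an actin-bundling protein of smooth and striated muscle. Its level was 34.0, 45.7, 12.4 and 20.6 CPM in BAPN 1 to 4 and 134, 137, 126 and 125 CPM in Vehicle 1 to 4. It had the largest gap of the 10 genes. The vehicle rats were nearly alike, with a coefficient of variation of 4.71%, whereas that of the BAPN rats was 52.3%. The mean was 28.2 ± 14.7 CPM against 131 ± 6.15 CPM (SD, n = 4 each), 4.64-fold higher in the vehicle group. With a log2 fold change of -2.21 (SE 0.33, edgeR FDR 0.00946), Synpo2 ranked 118 among the 11682 tested genes by p-value.

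Myocd (ENSRNOG00000003669) itself, the coactivator, had the fewest reads of the 10 genes, with 39 to 328 counts in BAPN rats and 80 to 239 in vehicle rats. In BAPN 1 to 4 it was at 2.82, 6.47, 0.900 and 1.63 CPM, and in Vehicle 1 to 4 at 6.69, 3.95, 6.86 and 11.4 CPM. BAPN 2 lay above Vehicle 2, so the groups overlapped. The log2 fold change of -1.29 was as large as that of Lmod1, but its standard error of 0.56 was wider and it was not called (edgeR FDR 0.14, DESeq2 FDR 0.0691). Without BAPN 2 it was called (edgeR log2 fold change -2.03, FDR 0.0408), and over the 19 alternative fits its FDR ranged up to 0.605.

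All 7 called genes also had no overlap between the groups, as did 11.9% of all tested genes in that direction. DESeq2 called the same number, 7 of 10, against 27.4% of all tested genes in either direction and 15.1% lower. The 3 with the smallest FDR, Synpo2, Lmod1 and Myh11, were called in each of the 8 fits that left out 1 rat. In those fits the log2 fold change was -2.56 to -1.97 for Synpo2, -1.60 to -1.18 for Lmod1 and -1.97 to -1.45 for Myh11. The calls of Smtn, Cnn1, Des and Mylk were less firm and were kept in 4, 3, 3 and 2 of the 8 fits, with a largest FDR of 0.0782. With sex as a covariate 3 genes were called (Synpo2, Lmod1 and Myh11), against 7.96% of all tested genes, while 7 had an unadjusted p below 0.05 and the median log2 fold change was -1.20. In that fit the log2 fold changes of the others that had been called were -1.71 for Cnn1, -1.15 for Mylk, -0.85 for Smtn and -0.67 for Des, with edgeR FDR values from 0.0507 to 0.0663. Among females alone (3 BAPN and 2 vehicle rats) edgeR called 0, with 5 at an unadjusted p below 0.05, against 0.762% of all tested genes called. The median log2 fold change of the 10 genes was then -0.73, with -2.14 for Synpo2, -1.45 for Cnn1, -1.29 for Myh11, -1.10 for Lmod1, -0.82 for Mylk and -0.50 for both Smtn and Des. The only male with a BAPN scaffold allows no test among males.

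The rats kept much the same order from gene to gene. BAPN 2 was the highest of its group in 10 of 10 genes, and BAPN 3 was the lowest of all 8 rats in 8 genes, with BAPN 4 the lowest in the other 2. Vehicle 4 was the highest of all rats in 6 genes, and Vehicle 1 was the lowest vehicle rat in 7. Summed over the 10 genes, BAPN 2 reached 4539 CPM, above the 3652 CPM of Vehicle 1, whereas the other BAPN rats were at 2434, 1785 and 1828 CPM and the other vehicle rats at 4889, 5620 and 6561 CPM. Acta2, Tagln and Myh11 made up most of that sum.

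**Figure D4:**
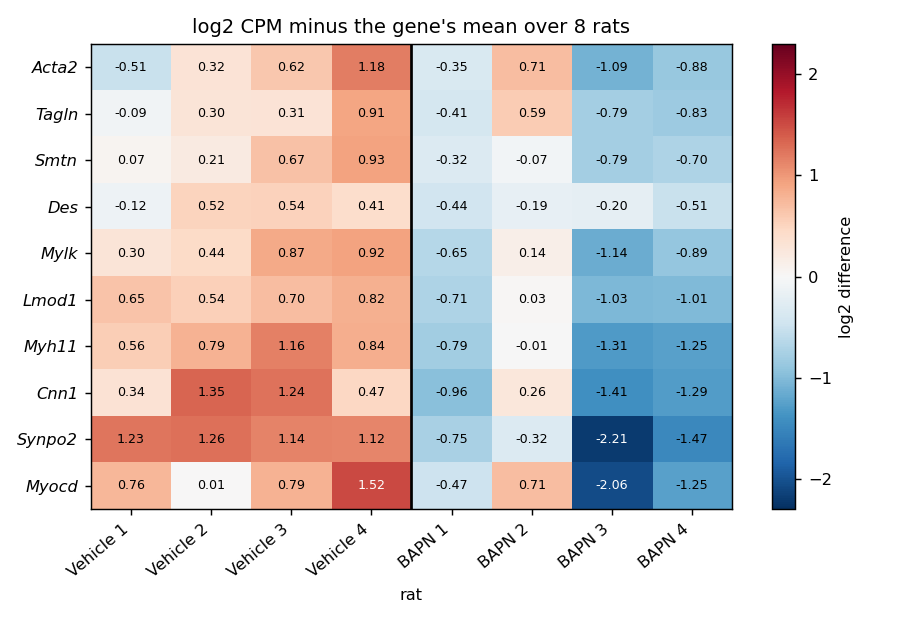
log2 CPM of each gene (rows) in each rat (columns) minus the gene's mean over the 8 rats, with the difference printed in each cell. The vehicle columns are mostly above 0 and the BAPN columns below it, and BAPN 2 stands out with values of 0.71 for Acta2 and Myocd and 0.59 for Tagln but -0.32 for Synpo2.

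Profiles across the 8 rats were compared by the root mean square difference of centred log2 CPM, a description over rats that share their group difference. Mylk and Lmod1 were the most alike, at 0.16, and Acta2 and Tagln differed by 0.24. Acta2 and Myh11 were farther apart, at 0.58, and Des and Synpo2 the farthest, at 1.02. Outside the 10 genes, the profiles most like Myh11 were those of Sgca (0.18), which encodes α-sarcoglycan, Ppp1r14a (0.20), Sobp (0.23), Igfbp5 (0.24), an insulin-like growth factor binding protein, and Gnao1 (0.24), a G protein α subunit. Their log2 fold changes lay between -1.87 and -1.37. Those most like Acta2 were Kcnmb1 (0.26), a subunit of the calcium-activated potassium channel, Tpm2 (0.27), which encodes β-tropomyosin, Has2 (0.30), a hyaluronan synthase, Nexn (0.30), an actin-binding protein, and Pdlim3 (0.32), a Z-disc protein. The log2 fold changes of these 5 lay between -0.79 and -0.52.

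Other filament and cytoskeletal genes of smooth muscle were divided. Of 20 listed genes 18 were tested, 4 were called lower and 1 higher (9.25% and 7.5% among all tested genes), and the median log2 fold change was -0.55. Synm, which encodes the intermediate filament protein synemin, a partner of desmin, was at 25.2 ± 6.93 CPM in BAPN rats and 68.5 ± 13.4 CPM in vehicle rats (SD, n = 4 each; log2 fold change -1.44, SE 0.21, edgeR FDR 0.00876). Pgm5, or aciculin, an adherens junction protein of muscle, had a log2 fold change of -1.65 (SE 0.27, edgeR FDR 0.0111). Myl9, the regulatory light chain that Mylk phosphorylates, was called at -1.07 (SE 0.28, edgeR FDR 0.0411), although BAPN 2, at 464 CPM, lay above Vehicle 1, at 449 CPM. When 1 rat was left out in turn, Synm and Pgm5 were called in 8 of 8 fits and Myl9 in 1.

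The gene called higher in that list was Vim, which encodes vimentin, the intermediate filament of mesenchymal and many immune cells. It stood at 5910.1 ± 378 CPM in BAPN rats and 4006 ± 260.3 CPM in vehicle rats (SD, n = 4 each; log2 fold change 0.56, SE 0.16, edgeR FDR 0.0474). Vim and Des thus had opposite signs, with no overlap between the groups in either, but Vim was called in 0 of the 8 fits that left out 1 rat. Flna, the actin crosslinker filamin A, did not pass with edgeR (log2 fold change -0.57, SE 0.19, edgeR FDR 0.0684, DESeq2 FDR 0.00821). Actg2, the enteric smooth muscle actin, was named after its values were seen and was not called with edgeR (log2 fold change -1.47, SE 0.51, edgeR FDR 0.0805, DESeq2 FDR 0.0137). How reads shared by the closely similar actin genes were assigned is not given in the sources used here, so the levels of Acta2 and Actg2 are uncertain to that extent.

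Of the genes that control contraction and relaxation, 19 of 21 listed were tested, 5 were called lower and none higher with edgeR (9.25% lower among all tested genes), and the median log2 fold change was -0.49. DESeq2 called 8, of which 7 were lower. Ppp1r12b, a targeting subunit of the phosphatase that removes the phosphate placed by Mylk, was at 52.6 ± 7.38 CPM in BAPN rats and 121 ± 14.1 CPM in vehicle rats (SD, n = 4 each; log2 fold change -1.20, SE 0.13, edgeR FDR 0.00291). Ppp1r14a, or CPI-17, an inhibitor of the same phosphatase, was lower as well (log2 fold change -1.37, SE 0.28, edgeR FDR 0.0199). So a subunit and an inhibitor of myosin phosphatase were both lower, beside the kinase, and with 1 rat left out they were called in 8 and 6 of 8 fits.

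Gucy1a1, a subunit of the nitric oxide receptor that drives relaxation, had a log2 fold change of -1.44 (SE 0.27, edgeR FDR 0.0146). Arhgef12, an activator of RhoA, was at -0.92 (SE 0.20, edgeR FDR 0.0223). Cacna1c, the pore of the L-type calcium channel, was at -0.98 (SE 0.23, edgeR FDR 0.0265). Of these, Gucy1a1 was called in 8, Arhgef12 in 5 and Cacna1c in 2 of the 8 fits without 1 rat. The genes of this list with the highest mean CPM were not called with edgeR. Rhoa itself, the GTPase that raises calcium sensitivity, was at 944 ± 103 and 750.5 ± 39.6 CPM (SD, n = 4 each; log2 fold change 0.33, edgeR FDR 0.121, DESeq2 FDR 0.0215) with no overlap between the groups, and Atp2a2, the calcium pump of the sarcoplasmic reticulum, had a log2 fold change of -0.26 (edgeR FDR 0.17, DESeq2 FDR 0.0595).

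Transcriptional regulators of these genes were called in 1 direction. Of 25 listed, 18 were tested, 8 were called lower and none higher (9.25% lower among all tested genes), and all 18 had a negative log2 fold change, with a median of -0.56, against 48.4% with a negative sign among all tested genes. Mrtfa, a myocardin-related coactivator of SRF, was at 43.8 ± 5.38 CPM in BAPN rats and 65.8 ± 5.52 CPM in vehicle rats (SD, n = 4 each; log2 fold change -0.59, SE 0.12, edgeR FDR 0.0163), and it was called in 8 of 8 fits without 1 rat. The count of 8 went down to 2 with sex as a covariate and to 1 without Vehicle 1, fits in which 7.96% and 3.4% of all tested genes were called and 10 regulators each had an unadjusted p below 0.05. Srf, named after its values were seen, was at 67.4 ± 2.23 and 89.0 ± 14.8 CPM and was not called with edgeR (log2 fold change -0.40, SE 0.13, edgeR FDR 0.056, DESeq2 FDR 0.0203). In all 4 BAPN rats Srf was below all 4 vehicle rats, as were 11.9% of all tested genes. The gap was narrow, with BAPN 2 at 70.6 CPM and Vehicle 1 at 72.7 CPM.

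Some regulators known to oppose the contractile program were lower too. Elk1 and Elk4 are factors that compete with myocardin for SRF. They had log2 fold changes of -0.55 (SE 0.14, edgeR FDR 0.0333) and -0.43 (SE 0.10, edgeR FDR 0.0245). Klf4, a repressor of contractile genes, was not called (log2 fold change -0.36, SE 0.19, edgeR FDR 0.193). Other called genes of the list were Zeb1, a zinc finger factor of mesenchymal cells (log2 fold change -1.003, edgeR FDR 0.0171), Prrx1, a homeobox factor of fibroblasts (-1.26, edgeR FDR 0.0248), and Heyl, a target of Notch (-1.10, edgeR FDR 0.0281). The remaining called genes, Mef2d and Hey2, were at -0.54 (edgeR FDR 0.0379) and -1.19 (edgeR FDR 0.0421). Besides Mrtfa, Zeb1 was called in 7 and Prrx1 in 5 of the 8 fits without 1 rat, and the other 5 genes in 2 or 3.

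Of the 11 markers of myofibroblasts and of the synthetic state, all were tested and 1 was called higher and none lower, a share near the 7.5% called higher among all tested genes, and the median log2 fold change was -0.01. S100a4, also called fibroblast-specific protein 1 and made by fibroblasts and macrophages, was at 669, 665.9, 997 and 1108 CPM in BAPN 1 to 4 and at 356, 508, 415 and 379 CPM in Vehicle 1 to 4. The groups did not overlap (log2 fold change 1.05, SE 0.20, edgeR FDR 0.017), and the call was kept in 7 of 8 fits without 1 rat, all but the one without Vehicle 1. Fn1, which encodes fibronectin, was at 10491 ± 1299 and 10900.5 ± 3644 CPM (SD, n = 4 each; log2 fold change -0.06, edgeR FDR 0.905). Spp1, or osteopontin, had a log2 fold change of 1.06 with overlapping groups (SE 0.52, edgeR FDR 0.126, DESeq2 FDR 0.043).

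**Figure D5:**
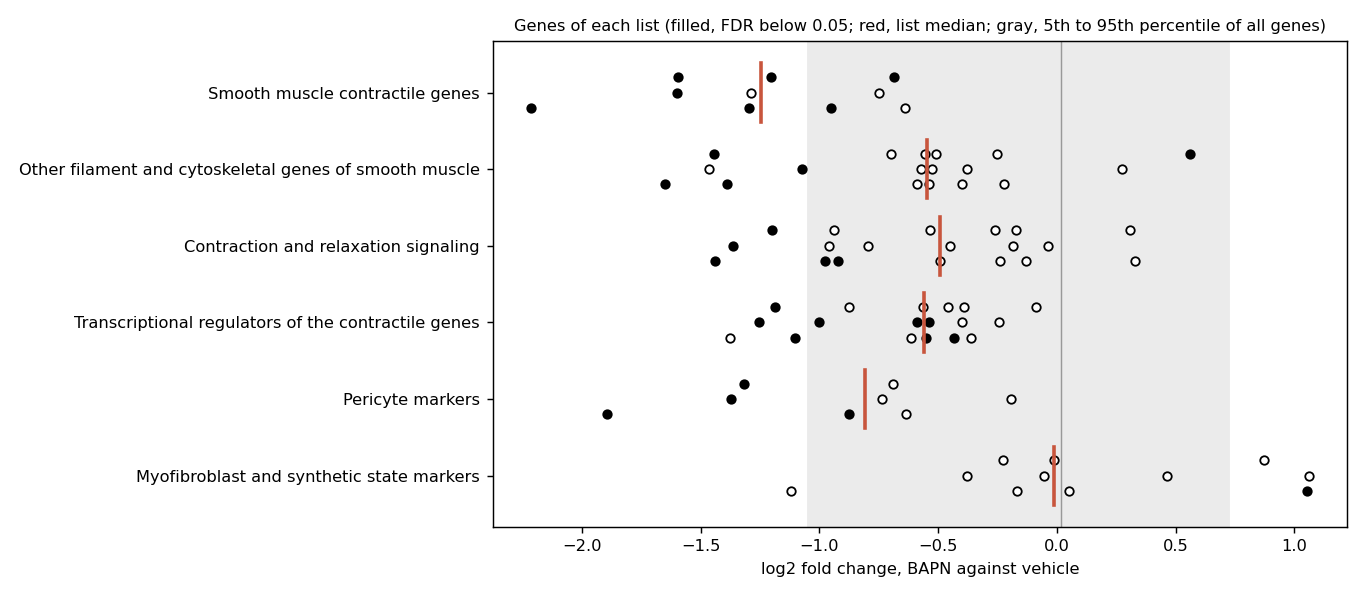
log2 fold change of BAPN against vehicle (x axis) for each tested gene of 6 lists (rows), filled where the edgeR FDR was below 0.05, with the list's median as a red bar and the 5th to 95th percentile of all tested genes in gray. Among the 6 lists drawn, the contractile genes have the lowest median, -1.25, followed by the pericyte markers at -0.81, and the median of the myofibroblast markers is -0.01.

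Markers of some other cells of the vein wall also differed between the groups. Pericytes, the mural cells of small vessels, share many transcripts with smooth muscle. Of 8 pericyte markers 4 were called lower and none higher (9.25% lower among all tested genes), the median log2 fold change was -0.81, and their summed level was 623 to 1003 CPM in BAPN rats and 1048 to 2271 CPM in vehicle rats. Notch3, a receptor of pericytes and vascular smooth muscle cells, was at 108 ± 30.7 and 401 ± 145 CPM (SD, n = 4 each; log2 fold change -1.90, SE 0.27, edgeR FDR 0.0089). Abcc9 and Kcnj8, the subunits of a potassium channel of mural cells, were lower with log2 fold changes of -1.37 (edgeR FDR 0.0116) and -0.88 (edgeR FDR 0.0137). Rgs5, a pericyte marker that dampens G protein signaling, was at -1.32 (edgeR FDR 0.0296), and Pdgfrb, a growth factor receptor with one of the highest mean CPM values of the list, was not called with edgeR (-0.74, edgeR FDR 0.0711, DESeq2 FDR 0.0199).

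Endothelial markers had a negative log2 fold change in 8 of 8 (48.4% among all tested genes), with a median of -0.68. By edgeR 2 were called lower, Tek and Vwf (beside 9.25% of all tested genes), with 4 at an unadjusted p below 0.05, and DESeq2 called 4. Their summed level was 495 to 668 CPM in BAPN rats and 826 to 1574 CPM in vehicle rats. Macrophage markers summed to 27908 to 41254 CPM in BAPN rats and 5843 to 22982 CPM in vehicle rats, mostly from Lyz2, the lysozyme of myeloid cells, but edgeR called 0 of 8 (1 at an unadjusted p below 0.05, and 1 by DESeq2). Of 6 T cell markers 2, Cd2 and Cd8a, were called higher (7.5% among all tested genes), with a median log2 fold change of 1.35 for the 6. Their sums overlapped and were mostly Cd4, the coreceptor of helper T cells, with a log2 fold change of -0.07. Fibroblast markers overlapped in their sums, 23378 to 36601 and 28512 to 94753 CPM, and edgeR called 0 of 7 (4 at an unadjusted p below 0.05, and 4 by DESeq2). Of 4 tested adipocyte markers 1, Plin1, was called lower by edgeR (beside 9.25% of all tested genes), although its groups overlapped. The median was -1.52 for the 4, with 3 at an unadjusted p below 0.05 in edgeR and 3 called lower by DESeq2. Fabp4, a fatty acid binding protein, was not called at 1690.1 ± 851 and 1039.7 ± 478 CPM (SD, n = 4 each; log2 fold change 0.70, edgeR FDR 0.269). The adipocyte markers summed to 1059.9 to 2925 CPM in BAPN rats and 436 to 1694 CPM in vehicle rats. These sums were mostly Fabp4, whereas 3 of the 4 tested adipocyte markers had a negative log2 fold change. Of 4 Schwann cell markers none was called by edgeR, at an unadjusted p below 0.05, or by DESeq2. The part of these differences in marker levels in the levels of the contractile genes was not tested.

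Skeletal muscle also makes Des and Synpo2. Of 14 listed markers, 3 passed the filter, and edgeR called 0 of them (1 at an unadjusted p below 0.05, and 1 by DESeq2). The sum of the 11 markers found by name was 26.6 to 38.1 CPM in BAPN rats and 29.9 to 85.6 CPM in vehicle rats. The marker called by DESeq2 was Acta1, skeletal actin, which was lower with overlapping groups (log2 fold change -2.50, SE 1.03, edgeR FDR 0.0843, DESeq2 FDR 0.0441). Acta1 reached 34.8 CPM in Vehicle 2 and was at 0.796 CPM in Vehicle 1, where Synpo2 stood at 134 CPM. Ckm, muscle creatine kinase, was at 0 counts in 4 of the 8 libraries. In Vehicle 2, Synpo2 stood at 137 CPM. Des was at 237 CPM in Vehicle 1 and at 370.0 CPM in Vehicle 2. The part of skeletal muscle in the levels of Des and Synpo2 was not tested.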

How the data were processed

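Total RNA of 8 outflow veins was depleted of ribosomal RNA and made into stranded libraries. The authors deposited raw counts of reads on each gene, 1 table for each rat, and these were used unchanged. The submitters' processing notes name bcl2fastq 2.17, Trim Galore and STAR. The counter, its strand setting and the genome build are not given in the sources used here, so reads of overlapping or near-identical genes may be shared. Groups, numbers and sex came from the sample labels. No labels name batches, and the counts of replicates differed by more than counting noise, so each library was 1 replicate.

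Genes with a mean of at least 100 counts after division by DESeq2 size factors were tested (11682 of 32623), as in the study's methods. The study named a DESeq plug-in, and edgeR 4.0.16 (TMM, quasi-likelihood test, treatment as the only term, R 4.3.3) was the test here, with DESeq2 1.42.0 as an alternative. Standard errors came from limma 3.58.1 (voom). Log2 CPM used a prior count of 2. Permutation tests went through all 70 arrangements and were two-sided. Fits were tested on simulated data. P-values measure the spread between these 8 rats.

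The 10 genes and all lists were chosen with earlier results of these data known. The text names the 10 genes, up to 6 called genes with the smallest FDR and the 2 with the highest mean CPM of each list, and the 5 genes most like Myh11 and Acta2. Most genes of highest mean CPM in the endothelial, fibroblast, macrophage, T cell, adipocyte, Schwann cell and skeletal muscle lists were left out for length. Actg2, Srf, Mef2d, Hey2, Acta1 and Ckm were named after their values were seen. Mkl1, Mrtfb, Mkl2 and Carmn were not found by name. Of the genes called lower in the filament list, 1 is not reported here by name. Among the 10 genes, read depth limits Myocd most, with 39 to 328 counts a library. Alternatives were other tests, scalings, filters, thinning, sex, pairing by number and leaving out each rat. RefSeq promoters of GRCr8 served for sequence only, and no coordinates come from the count files.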

Additional observations from a re-analysis of the deposited data

Results flagged for a closer look

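Among 32 groups of 4 values (10 genes and 6 ratios in each treatment group), 1 held a value far from the others by Dixon's criterion, which chance meets in about 1 in 20 groups. It was the log2 ratio of Smtn to Tagln in the BAPN group, with -4.40 in BAPN 2 and between -3.73 and -3.60 in the other BAPN rats, a gap of 0.834 of the group's range.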

How the results depend on the processing

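All 10 contractile genes had a negative log2 fold change in each of 19 alternative fits, and 7 were called under DESeq2, limma-voom, other scalings, other filters on low counts and equal library totals. The count of 7 went down to 3 with sex as a covariate and to 0 among females alone (5 at an unadjusted p below 0.05 in edgeR), and it ran from 3 to 9 when each rat was left out in turn. Calls over all tested genes, 16.8%, went down as well, to 7.96% with sex, 0.762% among females and 4.76% with the replicate block, and they ran from 3.4% to 19% without 1 rat. The replicate number as a block left 4 called (Synpo2, Lmod1, Myh11 and Cnn1), but the correlations of same-numbered rats were 0.09, -0.26, 0.27 and -0.14, so the numbers do not pair the rats. With that block the filament, signaling, regulator and myofibroblast lists had 3, 3, 0 and 0 called genes. In edgeR, 11 regulators and 1 myofibroblast marker were then at an unadjusted p below 0.05. The mean of 4 paired differences always equals the difference in group means, so pairing could not move a ratio. The exact sign-flip p-values of the ratios were at least 0.125, the smallest that 4 pairs allow. Against 5, 5, 8 and 1 called genes in these lists, DESeq2 called 9, 8, 10 and 2, and sex as a covariate left 2, 4, 2 and 1. Leaving out 1 rat gave 2 to 7 filament, 2 to 7 signaling, 1 to 8 regulator (1 without Vehicle 1) and 0 to 2 myofibroblast genes (0 without Vehicle 1, 2 without Vehicle 2). The differences in log2 ratio without 1 rat were -1.13 to -0.66 for Myh11 to Acta2, -1.15 to -0.84 for Myh11 to Tagln, -0.26 to 0.11 for Smtn to Acta2 (0.11 without BAPN 2, 0.04 without Vehicle 1), -0.30 to -0.04 for Smtn to Tagln, -0.77 to -0.26 for Lmod1 to Acta2 and -0.78 to -0.50 for Lmod1 to Tagln. With fewer rats a fit has less power, and no other cause was tested. Scalings moved the median of all genes only from -0.04 to 0.02.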
